A study of Oncorhynchus tshawytscha with 15 samples.

Results

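The step from 18° to 21° exposure was followed in gill RNA of juvenile Chinook salmon by comparing the 3 libraries at 21° directly with the 3 libraries at 18°, without use of the control group. These are 6 of the 15 libraries of the series. Contigs, the transcript pieces assembled from the reads, were kept when at least 10 reads were counted in at least 3 of the 6 libraries, and 141442 of the 183740 contigs in the table met this rule. The fish were fall-run juveniles of Merced River Hatchery origin, 5 months posthatch and reared at 12°. In both groups they spent 3 hr in water at 18° or 21° and then recovered for 1 hr at 12°. The 12° group was handled in the same way but never left 12°, and the 15° and 25° groups had baths of those temperatures. These 3 groups serve for levels and for the comparisons of 25° with 12° and of 15° with 12°. At 25° some fish lost responsiveness or died in the bath and were sampled at that point, so the 25° pools mix fish of unequal exposure and condition, and this cannot be told apart from temperature in any comparison with 25°. Each library was a pool of gill arch RNA from 11 fish, and 33 fish stood behind each temperature, so that the libraries average over single fish. The 3 replicates were run on consecutive days, with different fish in each. In bulk gill RNA, more RNA per cell and more cells of one type cannot be told apart.

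The gill exchanges gases, ions, and nitrogenous waste with the water through a thin epithelium, and it is among the first tissues of a fish to meet a change in water temperature. In animals generally, warming that unfolds proteins releases heat shock factors from their chaperones, and these factors then switch on the genes of heat shock proteins, which hold or refold damaged proteins. The response is graded in fish, and its onset depends on the temperature to which the animal was acclimated. The contigs of this table carry numbers and are not paired with gene names in the file, so none is assigned here to a heat shock gene or to any other, and the gill label could not be checked against marker genes. Numbers come in 2 series, a long one and one marked "simple" in the table, and 1859 numbers occur in both. Contigs of the second series are written here with the prefix simple.

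The 6 libraries held 76805729 to 85698021 reads at 18° and 63021529 to 77444684 at 21°, and 3 reads stand for 0.0350 to 0.0476 CPM (reads on a scale common to all libraries) in them, which covers counting error only. Between 97.7% and 97.8% of the reads aligned to 1 contig. Reads were found on 174333 to 176558 contigs in the pools at 18° and on 168767 to 171910 in those at 21°, so that the groups did not overlap (exact permutation test, two-sided, p = 0.1, which is the lowest value 3 pools against 3 can give). The shallowest of the 6 libraries was at 21°, and the part of depth in this difference was not tested. The 10 most abundant contigs took 3.78% ± 0.22 of the reads at 18° and 3.75% ± 0.037 at 21° (SD, n = 3 pools), a difference within the spread of the pools. The common biological coefficient of variation, edgeR's measure of spread between pools, was 0.164 at 18° and 0.264 at 21°. At 12°, 15°, and 25° it was 0.270, 0.237, and 0.252, so 18° had the narrowest spread of the series. The wider spread at 21° than at 18° lay mostly with replicate 3. Over 76647 contigs above 1 CPM, the log2 differences between replicate 3 and the other pools at 21° had an SD of 0.474 and 0.537, whereas that between replicates 1 and 2 was 0.315. The pool nearest to 21° replicate 3 was 18° replicate 2, at 0.335.

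A total of 228 contigs were higher at 21° than at 18° and 1 was lower, at an adjusted p-value below 0.01 and a change above 2-fold (quasi-likelihood test of edgeR, Benjamini-Hochberg adjustment over the 141442 contigs). These are 0.161% and 0.000707% of the contigs tested. At an unadjusted p-value below 0.05, 1072 contigs lay more than 2-fold higher and 824 more than 2-fold lower. Of these, 844 and 823 were not called, so that the 2 directions were nearly equal in this unadjusted list without the calls. Nearer the threshold they were not equal. At adjusted p-values from 0.01 to 0.10, 108 contigs were more than 2-fold higher, whereas all lower contigs below 0.10 numbered 10 (edgeR). With DESeq2's Wald test 361 contigs were higher, among them all 228, and 17 were lower. Without 21° replicate 3, the pool that stood apart, 292 were higher, including 224 of the 228, and 7 were lower. Leaving out any other pool lowered the count of higher contigs, to 114, 122, and 92 without replicates 1, 2, and 3 at 18°, and to 104 and 126 without replicates 1 and 2 at 21°. The count of lower contigs in these 5 fits was 0, 0, 0, 0, and 2.

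**Figure D1:**
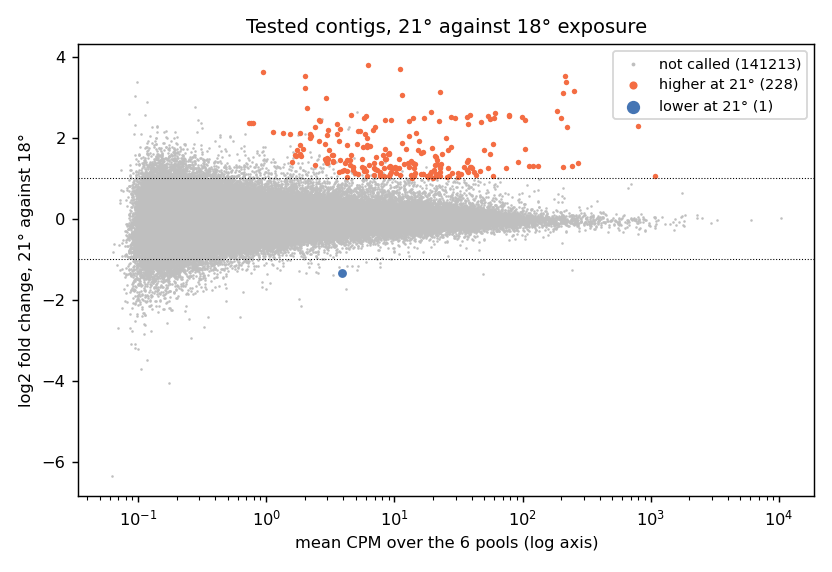
Each point is 1 of the 141442 tested contigs, with the mean CPM over the 6 pools at 18° and 21° on a log axis and the log2 fold change of 21° against 18° on the vertical axis. Dotted lines mark a 2-fold change; the 228 contigs called higher reach a log2 fold change of 3.80, and the 1 called lower lies at -1.34.

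The rises were mostly moderate. Their median log2 fold change was 1.48, with a range of 1.01 to 3.80 and with the middle 50% between 1.24 and 2.11, against a median of 0.00 over all tested contigs. Of the 228, 163 rose up to 4-fold, 54 between 4-fold and 8-fold, and 11 more than 8-fold. In all 228 the lowest pool at 21° lay above the highest at 18°, which follows closely from how they were picked, and the same held for 7.74% of all contigs tested. The median level of the risers over the 6 pools was 10.4 CPM, whereas it was 1.14 over the contigs tested. The rise on which they were picked lifts this level. In the pools at 12° and 15°, which took no part in picking them, the medians were 2.91 and 1.19 CPM. At 21°, 145 of the risers exceeded 10 CPM and 24 exceeded 100. Of the 228, 5 already exceeded 100 CPM at 18°, and 27 were below 1 CPM there. In none of them did the 18° pools all hold 3 reads or fewer, so each of these folds rests on reads in both groups.

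In length the 228 ranged from 122 to 6827 bp, with a median of 613 bp against 720 bp over the contigs tested. Contigs under 300 bp made up 27.6% of them (63 contigs) and 16.4% of all tested. The simple series supplied 50.4% of them (115 contigs) and 33.1% of all tested. Less than 50% of the reads were unique in 9 of the 228 (3.95%) and in 1.11% of all tested, and such contigs share reads with near copies. Several contigs can be pieces of 1 transcript, so 228 contigs are not 228 genes.

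The share of a library's reads that fell on the 228 contigs was 0.400%, 0.376%, and 0.391% in replicates 1, 2, and 3 at 18° and 1.30%, 1.35%, and 1.22% at 21°. The 21° pools therefore gave these contigs about the same share as one another and well over that of any 18° pool, which is the difference on which the contigs were picked. The libraries at 12°, 15°, and 25° took no part in picking them. The share was 0.179%, 0.173%, and 0.151% at 12° and 0.181%, 0.177%, and 0.183% at 15°, and these 2 groups overlapped. At 25° it was 10.5%, 10.6%, and 8.16%. The mean rose from 0.167% ± 0.015 at 12° and 0.180% ± 0.0028 at 15° to 0.389% ± 0.012 at 18°, 1.29% ± 0.066 at 21°, and 9.74% ± 1.37 at 25° (SD, n = 3 pools each). At 21°, 47.1% of the reads on the 228 were on the 10 contigs with the highest CPM there.

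**Figure D2:**
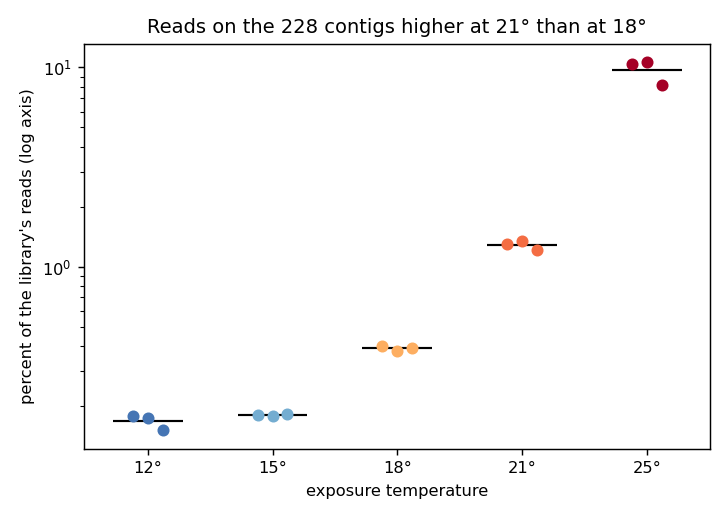
Percent of each library's reads (log axis) that were counted on the 228 contigs higher at 21° than at 18°, by exposure temperature; points are pools, in the order of replicates 1 to 3, and bars are means. The pools at 12° and 15° sit between 0.151% and 0.183%, those at 18° between 0.376% and 0.400%, those at 21° between 1.22% and 1.35%, and those at 25° between 8.16% and 10.6%.

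The pools at 12° and 25° share no fish and no library with those at 18° and 21°, and they show whether the same contigs moved in separate fish. Of the 228 contigs, 227 were also higher at 25° than at 12° and 0 were lower (edgeR, adjusted p-value below 0.01 and a change above 2-fold). Among all 141442 contigs, 8.84% were higher and 6.36% lower in that comparison. The median log2 fold change of the 228 at 25° against 12° was 4.95, and among the 227 it ran from 1.86 to 11.69. Over all tested contigs the median was -0.07 with TMM scaling and -0.44 with scaling by library totals. The split of calls at 25° depends on this scaling, with 12497 higher and 8993 lower under TMM (58.2% higher) and 8345 and 19150 under library totals (30.4% higher). The count among the 228 was 227 under both. Across the 228 contigs, those with the larger step from 18° to 21° had the larger difference between 25° and 12° (Spearman's rho 0.815, Pearson's r 0.852). This is a description across contigs, which are not independent replicates and which share contig length and abundance between the comparisons.

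**Figure D3:**
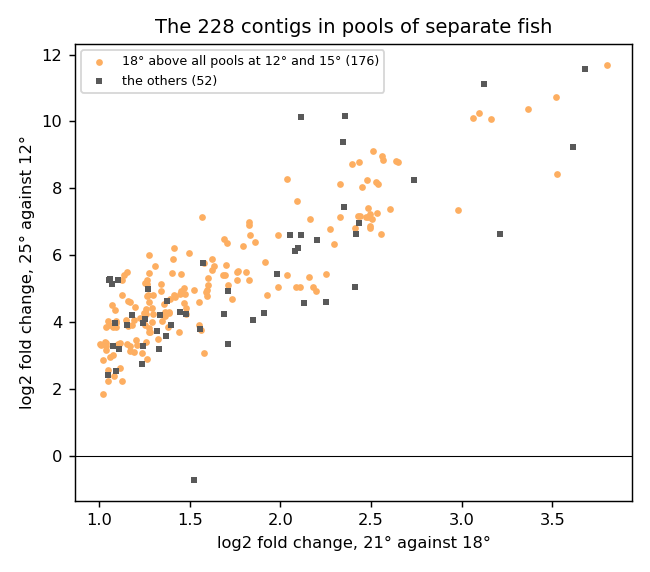
Log2 fold change of 21° against 18° (horizontal) and of 25° against 12° (vertical) for the 228 contigs, from fits of separate libraries; orange circles are the 176 contigs whose 18° pools all lay above the pools at 12° and 15°, and grey squares are the other 52. All points but 1 lie above 0 on the vertical axis.

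Exposures of 12°, 15°, 18°, and 21° are spaced by equal steps of 3°, which allows the steps to be set side by side. The counts of calls also depend on spread and depth, which were not equal. The coefficient of variation between pools was 0.270 at 12°, 0.237 at 15°, 0.164 at 18°, and 0.264 at 21°. The shallowest library of the series, with 58654252 reads, was at 15°. The part of spread and depth in the counts below was not tested. In its own fit of 6 libraries, the step from 12° to 15° gave 0 higher and 0 lower contigs (0% and 0% of 145873 tested), with 490 and 604 more than 2-fold away at an unadjusted p-value below 0.05, and scaling by library totals also gave 0 and 0. The step from 15° to 18° gave 48 higher and 2 lower (0.0335% and 0.00139% of 143441), and 44 and 0 with library totals. That step shares the 18° pools with the one from 18° to 21°. With a replicate block, a term for replicate number in the fit, the counts of higher contigs fell. They were 0 from 12° to 15°, 3 from 15° to 18°, and 127 from 18° to 21°. The main fits did not pair pools by replicate number, and whether the numbers stand for the days of the runs is not stated. The difference between the step from 18° to 21° and the step from 12° to 15° was tested in 1 fit of their 12 libraries. This test uses the 18° and 21° pools again, so in contigs picked by the step between them it is not separate evidence. In 87 contigs the upper step was greater by more than 1 on the log2 scale, and in 0 contigs the lower step was (0.0615% and 0% of 141442, adjusted p-value below 0.01, edgeR). Of the 87, 86 are among the 228, and the differences ran from 1.02 to 3.64. The remaining contig, simple_contig_76646, named after its values were seen, rose from 18° to 21° by 0.98 on the log2 scale, just under the 2-fold threshold (SE 0.10, adjusted p = 0.00221, edgeR).

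Within the 228, no contig was called in the step from 12° to 15°. The log2 fold change of 15° against 12° had a median of 0.04 in the 223 of them tested there, with a range of -1.40 to 0.92. On a common scale, the log2 ratio of mean CPM with a pseudocount of 0.1, the median step of the 228 was 0.03 from 12° to 15°, 0.83 from 15° to 18°, 1.45 from 18° to 21°, and 2.50 from 21° to 25°, which is a step of 4°. Over all tested contigs the 4 medians lay between -0.02 and 0.00. Positive steps numbered 134, 226, 228, and 227 of the 228, and the count at the step from 18° to 21° follows from the choice of the contigs. The share of positive steps over all tested contigs was not counted. The steps next to the one that picked the contigs share its 18° or 21° pools and are given as a description. At 18° the median contig of the 228 stood at 6.65% of its 25° level, and at 21° at 17.5%.

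**Figure D4:**
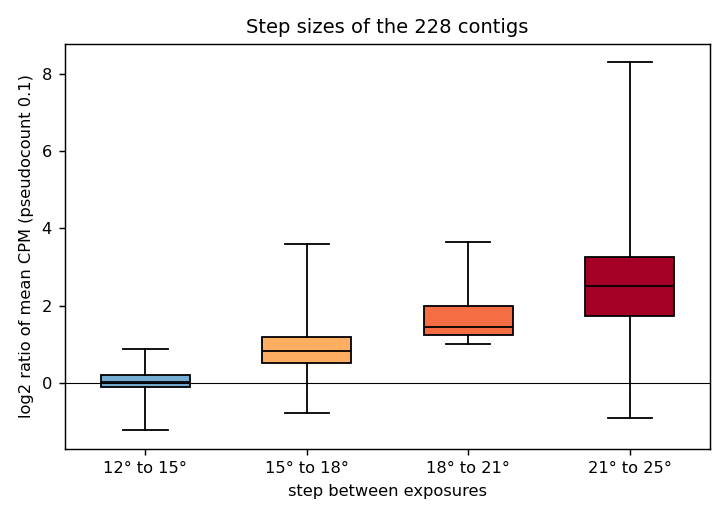
Log2 ratio of mean CPM between neighbouring exposures (pseudocount of 0.1 CPM) for the 228 contigs; boxes span the middle 50% with the median as a line, and whiskers reach the lowest and highest contig. Medians are 0.03, 0.83, 1.45, and 2.50 from the lowest step to the highest.

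The 228 contigs were sorted, mostly into 2 kinds, by the order of their pools at 18° and below. In 176 of them (77.2%) all 3 pools at 18° lay above all 6 pools at 12° and 15°, a pattern found in 3.48% of all contigs tested. By the test of 18° against 15°, 39 of the 227 risers tested there were called higher (edgeR), so for most of the 176 the higher level at 18° is a matter of the order of the pools and not of a call. In 51 (22.4%) the 18° pools overlapped the range of the cooler pools, and in 1 they lay below it. A single cooler pool can set this class. In contig_982697, chosen after its values were seen, 12° replicate 1 had 1.13 CPM and the other cooler pools at most 0.428. Its 18° pools had 0.767, 0.815, and 0.863 CPM. How many of the 51 rest on 1 cooler pool was not counted. The first kind had a median level of 3.17 CPM at 12°, 3.36 at 15°, 6.83 at 18°, 19.1 at 21°, and 95.1 at 25°. The second kind had 2.11 CPM at 12°, 1.51 at 15°, 2.27 at 18°, 6.46 at 21°, and 61.0 at 25°. Median steps from 18° to 21° were 1.46 and 1.57 on the log2 scale in the 2 kinds, which were not compared by a test because the step itself chose the contigs. All 176 and all 51 were higher at 25° than at 12° (edgeR). The difference of steps, which tests the rise from 18° to 21° against the one from 12° to 15°, was called in 73 of the 176 and in 13 of the 51. It uses the 18° and 21° pools that picked the contigs.

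Among contigs with a mean of at least 1 CPM, the 2 with the largest rise, simple_contig_78846 and simple_contig_74187, stood low at 18°. Their pools there held 23 to 123 and 76 to 225 reads. For simple_contig_78846 (267 bp) the pools at 18° had 0.272, 0.706, and 1.54 CPM and those at 21° had 10.1, 13.3, and 11.7. Its rise of 3.80 on the log2 scale (SE 0.44, adjusted p = 0.00591, edgeR) rests on a contig with only 0.91% unique reads and on 18° pools that differ more than 5-fold among themselves. It was past the threshold in 8 of 12 alternatives. The call was lost on unique reads (3.01, adjusted p = 0.259) and without 18° replicate 2 or 21° replicates 1 or 2, and without 18° replicate 3 the value was 4.55.

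For simple_contig_74187 (259 bp) the 18° pools had 0.897, 1.04, and 2.82 CPM and the 21° pools 26.1, 23.4, and 11.6, a rise of 3.68 (SE 0.45, adjusted p = 0.00735, edgeR). Replicate 3 was the highest pool at 18° and the lowest at 21°. At 12° and 15° its pools ranged from 0.072 to 3.96 CPM, over the whole range seen at 18°, whereas at 25° they held 4272 to 7696 CPM. Its call was kept in 6 of 12 alternatives and was lost without replicates 1 or 2 of either temperature. The call was also lost with the replicate block and with all 15 libraries in 1 fit (adjusted p = 0.0743, edgeR). Without 18° replicate 3 the value was 4.38.

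A further contig of this shape, simple_contig_12135 (494 bp), was taken up after the values were seen. Its 18° pools had 3.19, 3.31, and 7.41 CPM, within the 1.14 to 7.49 CPM of the cooler pools. The 21° pools had 48.2, 46.1, and 27.1 CPM and the 25° pools 7992 to 14739, so that the larger part of its rise came after 21° (log2 fold change 3.12, SE 0.34, adjusted p = 0.004 at 21° against 18°, and 11.12, SE 0.52, adjusted p = 8.3e-07 at 25° against 12°, edgeR). The call at 21° was kept in 6 of 12 alternatives and was lost without replicates 1 or 2 of either temperature. It was also lost with the replicate block and with all 15 libraries in 1 fit (adjusted p = 0.0121, edgeR).

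The contigs simple_contig_67625 (276 bp) and simple_contig_21086 (415 bp) rose as far but from more reads. The first had 28.9, 32.2, and 40.6 CPM at 18° and 355, 425, and 393 at 21°, a log2 fold change of 3.52 (SE 0.14, adjusted p = 1.42e-05, edgeR). The second had 32.3, 36.8, and 46.9 CPM at 18° and 384, 421, and 398 at 21°, a log2 fold change of 3.37 (SE 0.14, adjusted p = 1.42e-05, edgeR). Both lay between 2.86 and 10.1 CPM in all pools at 12° and 15°, and at 25° they took a mean of 0.763% and 0.809% of the reads. By the test that shares the 18° and 21° pools, both steps exceeded the step from 12° to 15°, by 3.63 (SE 0.43, adjusted p = 0.00307) and 3.46 (SE 0.32, adjusted p = 5.47e-04, edgeR). The ratio of the first to the second ranged from 0.501 to 1.05 over the 15 libraries.

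Low contigs with large folds were simple_contig_5465 (1921 bp) and contig_1393589 (1116 bp). The first had 0.224, 0.272, and 0.463 CPM at 18° and 4.76, 3.52, and 2.82 at 21°, a log2 fold change of 3.53 (SE 0.30, adjusted p = 9.36e-04, edgeR). The second had 0.531, 0.359, and 0.263 CPM at 18° and 4.47, 2.98, and 3.34 at 21°, a log2 fold change of 3.21 (SE 0.27, adjusted p = 8.94e-04, edgeR). The 18° pools of simple_contig_5465 lay above every cooler pool, but narrowly, since 15° replicate 1 had 0.175 CPM. For contig_1393589, 2 of the 3 pools at 18° lay within the 0 to 0.442 CPM of the cooler pools. Neither contig was called at 18° against 15° (adjusted p = 0.691 and 0.849, edgeR). At 25° both were at 30.7 to 40.4 CPM.

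Among the 11 contigs past 8-fold, 2 more were chosen after their values were seen. The 18° pools of simple_contig_34177 (1028 bp) had 0.0708, 0.196, and 0.150 CPM and the 21° pools 2.27, 1.71, and 1.25, a log2 fold change of 3.62 (SE 0.37, adjusted p = 0.0026, edgeR). Its level at 21° stayed far below its 22.5 to 34.1 CPM at 25°. Its call was kept in 7 of 12 alternatives and lost with the replicate block and without 18° replicates 1 or 3 or 21° replicates 1 or 2. The other, simple_contig_41831 (964 bp, 9.14% unique reads), rose from 2.67, 2.09, and 2.63 CPM to 21.3, 23.9, and 16.7, a log2 fold change of 3.06 (SE 0.16, adjusted p = 3.74e-05, edgeR). On unique reads alone its log2 fold change was 2.27 (adjusted p = 5.51e-04), which is under 8-fold.

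The smallest adjusted p-values belonged to contigs whose pools differed little within a temperature beside the distance between 18° and 21°. For simple_contig_72863 (218 bp) the 18° pools had 10.9, 11.0, and 11.6 CPM and the 21° pools 63.1, 69.4, and 67.1, a log2 fold change of 2.57 (SE 0.08, adjusted p = 9.15e-06, edgeR). The 2 groups were tight and far apart, and the pools at 12° and 15° lay at 1.30 to 2.38 CPM. For simple_contig_71903 (255 bp) the 18° pools had 42.1, 41.3, and 45.1 CPM and the 21° pools 378, 397, and 328, a log2 fold change of 3.10 (SE 0.10, adjusted p = 9.15e-06, edgeR). For simple_contig_60596 (1707 bp) the values were 50.5, 47.8, and 53.2 CPM at 18° and 460, 502, and 397 at 21°, a log2 fold change of 3.16 (SE 0.11, adjusted p = 1.09e-05, edgeR). The last 2 kept nearly 1 ratio to each other, 1.04 to 1.31 over all 15 libraries, and whether they are pieces of 1 transcript was not tested. By the test that shares the 18° and 21° pools, their steps exceeded the step from 12° to 15° by 2.38 (adjusted p = 4.01e-04) and 2.55 (adjusted p = 1.96e-04, edgeR). This is not separate evidence, since the same pools picked these contigs. At 25° against 12° their log2 fold changes were 10.24 and 10.09 (edgeR, adjusted p = 1.46e-07 for both).

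The 4 contigs with the highest CPM had log2 fold changes from 1.04 to 3.16, the largest being that of simple_contig_60596 given above. For simple_contig_61835 (2869 bp) the 18° pools had 780, 628, and 706 CPM and the 21° pools 1566, 1525, and 1268. Its log2 fold change of 1.04 lies at the threshold (SE 0.12, adjusted p = 0.00587, edgeR). The contig kept its call in 6 of 12 alternatives. The contig lost it with the replicate block and when any pool other than 21° replicate 3 was left out. It was already the most abundant of the 228 at 12°, with 191 to 301 CPM. For simple_contig_3643 (3206 bp) the 18° pools had 267, 266, and 270.0 CPM and the 21° pools 1383, 1400.1, and 1166, a log2 fold change of 2.29 (SE 0.10, adjusted p = 1.6e-05, edgeR). Its difference of steps, 2.21 (SE 0.13, adjusted p = 1.3e-05, edgeR), is the one of those given here with the smallest adjusted p. That test shares the 18° and 21° pools that picked the contig. For simple_contig_11449 (1880 bp) the 18° pools had 160.1, 145, and 151 CPM and the 21° pools 411, 419, and 351, a log2 fold change of 1.36 (SE 0.10, adjusted p = 3.21e-04, edgeR). In RPKM, the deposited value that is scaled by contig length and allows contigs of unequal length to be compared, the mean levels at 21° were 527 for simple_contig_61835, 427 for simple_contig_3643, and 218 for simple_contig_11449. By that measure the short simple_contig_71903 (1501 RPKM), simple_contig_67625 (1478 RPKM), and simple_contig_21086 (1008 RPKM) stood higher at 21°.

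**Figure D5:**
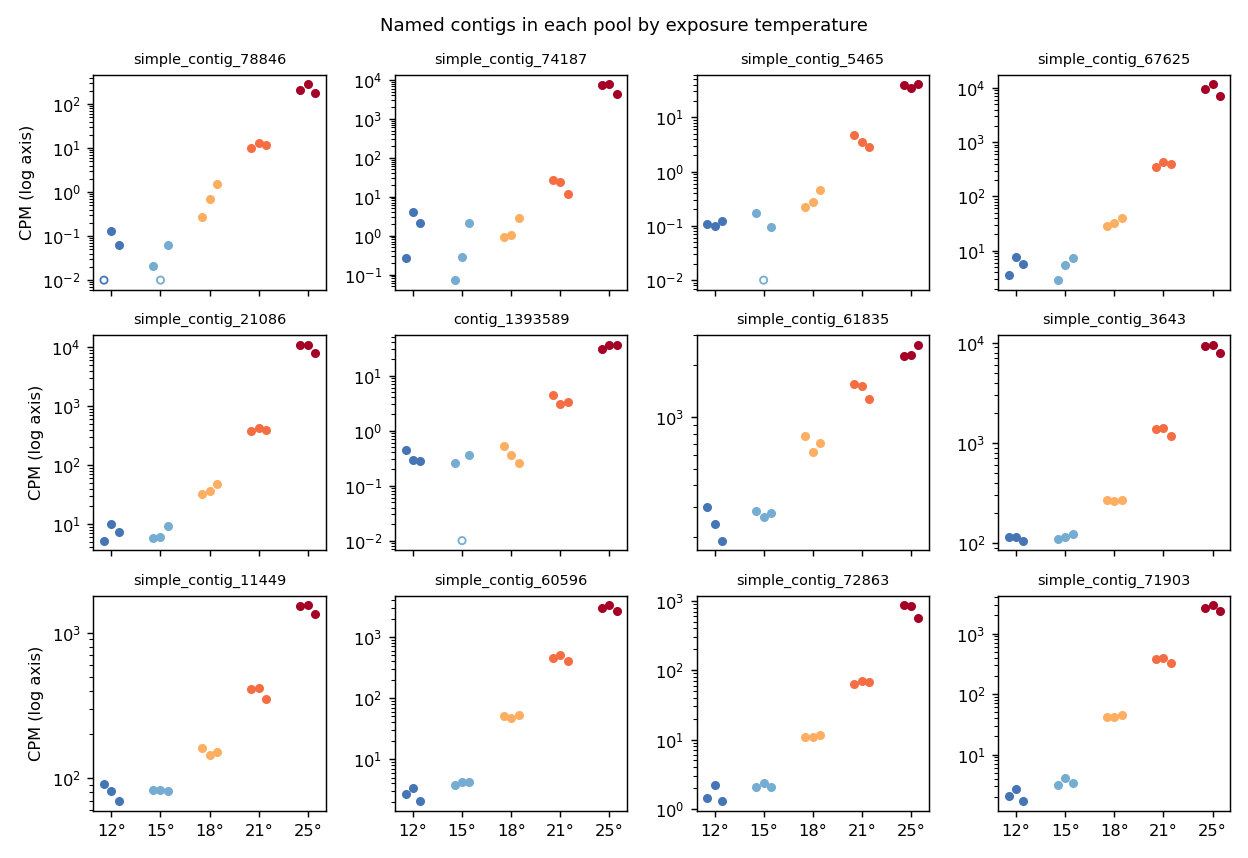
CPM (log axis, with its own range in each panel) of 12 named contigs in each pool by exposure temperature, replicates 1 to 3 from left to right; open circles at the lower edge mark pools with 0 reads. In all 12 panels the pools at 21° lie above those at 18° and below those at 25°.

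Of the 51 contigs whose 18° pools overlapped the cooler ones, the 5 most abundant were also taken up after their values were seen. For simple_contig_70960 (816 bp) the pools had 28.3 to 37.2 CPM at 12° and 15°, 39.5, 36.1, and 39.6 at 18°, and 84.5, 82.2, and 73.3 at 21°. Its rise was 1.05 (SE 0.09, adjusted p = 8.35e-04, edgeR). By the test that shares the 18° and 21° pools, this rise was greater than its step from 12° to 15° by 1.29 (SE 0.13, adjusted p = 0.00116, edgeR). In contig_1561025 (603 bp) the pools had 14.3 to 20.3 CPM at 12° and 15°, 21.4, 19.96, and 21.8 at 18°, and 45.9, 45.1, and 45.1 at 21°, a 2.15-fold rise (SE 0.08 on the log2 scale, adjusted p = 3.01e-04, edgeR). The other 3, simple_contig_59375, simple_contig_25717, and contig_1387348, rose by 1.06 to 1.25 on the log2 scale. Of 12 alternatives the call was kept in 6 for simple_contig_59375, which lost it when any pool other than 21° replicate 3 was left out, in 7 for contig_1387348, which lost it when any 18° pool or 21° replicate 1 was left out, and in 10 for simple_contig_25717, which lost it without 18° replicate 3. For simple_contig_70960 it was kept in 9 and lost without 18° replicate 3 or 21° replicate 1, and for contig_1561025 in all 12. Every one of these contigs but contig_1561025 also lost the call with the replicate block. All 5 were higher at 25° than at 12°, by 3.31 to 5.30.

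The exception among the 228 was contig_1109664 (151 bp), the 1 contig not higher at 25° than at 12°. Its pools had 4.23, 4.09, and 2.72 CPM at 18° and 12.3, 8.91, and 10.7 at 21° (log2 fold change 1.53, SE 0.19, adjusted p = 0.00756, edgeR). At 12° and 15° it lay between 5.64 and 14.3 CPM, above every 18° pool and overlapping those at 21°, and at 25° it reached 7.08 CPM at most. Only 0.162% of its reads were unique. Its call was kept in 3 of 11 alternatives, being lost when any pool other than 21° replicate 3 was left out. The call was also lost with library totals, with the replicate block, and with all 15 libraries in 1 fit.

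The 1 contig called lower, contig_1119366 (163 bp), was of the same sort, with 0.446% unique reads. Its pools had 5.25, 5.40, and 5.97 CPM at 18° and 2.62, 1.98, and 2.01 at 21°, a log2 fold change of -1.34 (SE 0.15, adjusted p = 0.00456, edgeR). In the other libraries it ranged from 2.44 to 15.8 CPM, with pools of 1 temperature up to 14.2 and down to 3.41 CPM at 12°, and at 25° against 12° it had a log2 fold change of 0.04 (SE 0.50, adjusted p = 0.964, edgeR). It was kept in 4 of 11 alternatives, being lost when any pool other than 21° replicate 3 was left out. It was also lost with the replicate block (adjusted p = 0.0281) and with all 15 libraries in 1 fit (adjusted p = 0.503, edgeR). It was not tested on unique reads, of which it had too few.

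At a looser threshold, an adjusted p-value below 0.10 with a change above 2-fold, 336 contigs were higher and 10 lower. Of the 108 higher contigs that this adds, 101 (93.5%) were also higher at 25° than at 12° and 0 were lower. Of the 10 lower contigs, 5 were lower at 25° than at 12° and 0 were higher (edgeR, adjusted p-value below 0.01). Among the contigs past 2-fold at an unadjusted p-value below 0.05 but not called, 44.0% of the 844 higher ones were higher at 25° than at 12° and 14.5% of the 823 lower ones were lower, to be read against the 8.84% and 6.36% of all contigs given above. The median level of these contigs was low, 0.279 and 0.198 CPM.

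None of these 5 passed the threshold of 0.01, and they are named after their values were seen. The most abundant were contig_488744 (991 bp) and simple_contig_60987 (1619 bp). The first had 9.13, 6.95, and 8.25 CPM at 18° and 4.55, 3.88, and 3.14 at 21°, with 8.40 to 12.1 in the cooler pools and 0.192 to 0.676 at 25° (log2 fold change -1.08, SE 0.16, adjusted p = 0.024 at 21° against 18°, and -4.80, SE 0.41, adjusted p = 3.07e-05 at 25° against 12°, edgeR). Its pools at 21° lay below all cooler pools and above those at 25°. The second had 8.20, 4.70, and 6.57 CPM at 18° and 2.85, 3.20, and 2.58 at 21° (log2 fold change -1.18, SE 0.20, adjusted p = 0.0472, edgeR). At 25° it was at 1.12 to 1.65 CPM, and its log2 fold change against 12° was -2.73 (SE 0.20, adjusted p = 1.05e-05, edgeR). For contig_484423 (958 bp) the 18° pools had 2.73, 3.00, and 3.04 CPM and the 21° pools 1.43, 1.26, and 1.65, a log2 fold change of -1.02 (SE 0.16, adjusted p = 0.0354, edgeR). The others were contig_1805786 (log2 fold change -1.35, adjusted p = 0.0356) and contig_858383 (-1.28, adjusted p = 0.0936, edgeR), of which the second had 48.0% unique reads. The 18° pools of contig_1805786, at 3.02 to 4.19 CPM, lay above the 1.57 to 2.35 CPM of the cooler pools. Its 21° pools, at 1.05 to 1.76 CPM, overlapped the cooler ones, so its fall starts from a raised level at 18°.

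Which pool was lowest was unevenly spread over the 228. Replicate 3 was the lowest of the 3 pools at 21° in 147 of the 228 contigs, replicate 1 in 48, and replicate 2 in 33. At 18° the lowest pool was replicate 2 in 120, replicate 1 in 63, and replicate 3 in 45. The same counts over all tested contigs were not made, so they cannot be read as a trait of the 228.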

How the data were processed

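Gill RNA was sequenced from pools of 11 fish at 12°, 15°, 18°, 21°, and 25°, with 3 pools each, and the titles of the samples gave their groups and replicate numbers. Trimming, de novo assembly, and read mapping to the contigs (CLC Genome Workbench) were done by the authors. The deposited counts are whole numbers of reads per contig and library, total and unique, and were not normalized; total reads were tested. RPKM values, as deposited by the authors, served only for comparing contigs of unequal length. Of the 98 columns, 51 were not used, among them the authors' own fold changes and p-values for each temperature against 12°.

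Contigs were tested with edgeR (version 4.0.16, R 4.3.3; TMM, glmQLFit, glmQLFTest) in fits of the 6 libraries concerned with p-values adjusted by Benjamini-Hochberg, and calls needed a value under 0.01 and a change above 2-fold. The difference of steps was fitted over 12 libraries. Each SE was taken as the log2 fold change over the root of the F statistic. Printed CPM values use TMM factors of all 15 libraries. Library depth was 58654252 to 90869450 reads. Alternatives were DESeq2's (version 1.42.0) size factors and Wald test, library totals, other filters and thresholds, all 15 libraries in 1 fit, a replicate block, leaving out each library, unique reads, and contigs of at least 300 bp. Python 3.11.15 was used for the rest (scipy 1.17.1, pandas 2.3.3, numpy 2.4.6). The fits were tested on simulated counts with independent pools and the same spread in both groups. The wider spread at 21° (0.264) was not simulated.

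Contigs named are, per direction, among those called with no overlap of pools and at least 1 CPM over the 6 libraries, the 6 with the largest change, the 4 with the highest CPM, and the 3 with the smallest adjusted p, and up to 3 called in opposite directions at 25° against 12°, of which there were 0. Other contigs are named as chosen after their values were seen. The contigs, lists, and tests were chosen with earlier results of these data known.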

Additional observations from a re-analysis of the deposited data

Results flagged for a closer look

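The step from 18° to 21° differed from the equal step from 12° to 15° in 87 contigs, tested as a difference of the 2 steps in 1 fit of 12 libraries (edgeR, adjusted p-value below 0.01 and a difference above 1 on the log2 scale), and in all 87 the upper step was the greater. These are 0.0615% of the 141442 contigs tested. The count was 85 with library totals and 71 with the replicate block. Of the 87, 86 are among the 228 contigs picked by the step from 18° to 21°. The test uses those 18° and 21° pools again, so for these contigs it is not separate evidence.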

How the results depend on the processing

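Against 228 higher and 1 lower contigs at 21°, DESeq2's Wald test gave 361 and 17, and the 6 fits that each left out 1 library gave 92 to 292 and 0 to 7. Other counts of higher contigs, apart from the replicate block given below, stayed within 1.5 times, and those of lower contigs were 2 with all 15 libraries in 1 fit, 0 on unique reads, 0 for contigs of at least 300 bp, 6 at an adjusted p-value below 0.05, 10 below 0.10, and 2 with no fold threshold. With the replicate block, 127 were higher, 125 of them among the 228, and 0 lower. The block also gave 3 contigs for 18° against 15° (50 without it) and 12357 for 25° against 12° (21490 without it), and 227 of the 228 were called higher at 25° in that fit too. The difference of steps was called in 71 contigs. Same-numbered pools of 18° and 21° had deviations from their group means that correlated at 0.365, -0.49, and -0.16 for replicates 1, 2, and 3. The best correlation was that of 18° replicate 2 with 21° replicate 3 (0.636). The main fit therefore did not pair pools by number. Whether the numbers stand for the days of the runs is not stated. These correlations cannot show that a day effect was absent, so the counts with the block are given beside the main ones. Of 262 values of named contigs under the alternatives, 204 kept their call, 58 lost it, and 0 changed direction. The cause was not tested. Contigs far below 1 CPM rest on few reads, and 3 pools a group limit the test.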

Other observations

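A set of 1311 contigs, found after the values were seen, was more than 2-fold higher in 18° replicate 2 and 21° replicate 3 than in any of the other 4 pools of those temperatures, and 71 were more than 2-fold lower in both. In the libraries that did not choose them, the summed level of the 1311 contigs was 4796 and 7655 CPM in replicates 2 and 3 at 12°, 6301 and 5336 in replicates 1 and 3 at 15°, and 7023 in replicate 1 at 25°. It was 1158 CPM in replicate 1 at 12°, 1198 in replicate 2 at 15°, and 1491 and 1913 in replicates 2 and 3 at 25°. At 12°, 15°, and 25° there was thus at least 1 pool at a high level and at least 1 at a low level. No replicate number was high at all of these temperatures, and the origin of these contigs was not tested. The pool that lay apart at 21° was used to choose the set, so its 5535 CPM against 1188 and 912 in the others follows from the choice.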
